A study of Mus musculus with 83 samples.

Results

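The later part of the ovulatory response was followed here in vitrified mouse follicles alone, by comparing follicles taken 8 h after hCG with follicles taken 4 h after it. All libraries of vitrified follicles at these times that were made on the plate shared by fresh and vitrified samples entered the comparison. They were 10 of the 83 libraries of the series, 3 at 8 h and 7 at 4 h, and each came from 1 follicle. The follicles were from wild-type CD-1 mice, an outbred strain, and no group carried an engineered allele. Every follicle had been vitrified, that is, cooled to a glassy state without ice, warmed, and grown for 8 days in beads of 0.5% alginate. Follicles with a diameter of 300 to 350 µm were then moved to a medium with recombinant FSH at 10 mIU/ml, EGF at 10 ng/ml and hCG at 1.5 IU/ml, so both groups had the same agents and differed in the time since they were added. For comparison, 4 fresh follicles at 8 h and 7 at 4 h from the same plate had the same culture without vitrification, and 9 more vitrified follicles at 8 h came from a plate that held no 4 h library. Where these 9 are compared with 4 h below, the 4 h libraries are those of the shared plate. In that comparison plate and time cannot be told apart. On the shared plate the 8 h and 4 h libraries lay in rows of their own, so plate row and time cannot be told apart. The labels name neither animals nor culture runs, and p-values therefore measure the spread between follicles, part of which may be technical.

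Human chorionic gonadotropin acts on the receptor for luteinizing hormone on granulosa cells and raises cAMP. Mural granulosa cells then release EGF-like ligands, which act on the EGF receptor and start cumulus expansion and the resumption of meiosis, while prostaglandins and the progesterone receptor drive rupture of the follicle wall. Induction of these genes is transient in the mouse, and granulosa cells go on to become luteal cells, which make progesterone and lose the estradiol programme.

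Total counts were 1915506, 5781303 and 5733507 in the 3 libraries at 8 h, and lay between 1750683 and 2981260 in the 7 libraries at 4 h. Replicates 1 and 2 of the 4 h group differed by 1.91 times counting noise (chi-square per degree of freedom), against 10.2 to 25.4 in the other 20 pairs of that group and 7.82 to 79.9 in all 50 other pairs within the 4 vitrified and fresh groups at 8 h and 4 h. Their difference was thus close to sampling noise and far from that of any other pair, and they were summed and counted as 1 sample, which leaves 6 samples at 4 h. The mean number of genes with a count was 15545 ± 1556 at 8 h and 13073 ± 506 at 4 h (SD, n = 3 and 6; exact permutation test, two-sided, adjusted p = 0.0794 over 10 makeup measures). The 50 most abundant genes of a library held 37.2% ± 1.32 of its counts at 8 h and 45.0% ± 1.68 at 4 h (exact permutation test, adjusted p = 0.0476; the smallest unadjusted p of this design is 0.0238).

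Levels of 12 granulosa markers summed to between 1.53% and 1.75% of counts at 8 h and to between 4.65% and 5.40% at 4 h, with no overlap (exact permutation test, adjusted p = 0.0476). Nearly all of it was Inha and Inhba, inhibin subunit genes described with their group. Of the 10 markers tested 5 fell and 2, Fshr and Amhr2, rose. Each of the 12 markers had counts in at least 1 library. Of 20 oocyte markers listed 19 were in the table, and 1 was at 0 in every library. They took 0.00469% to 0.00875% at 8 h and 0.00167% to 0.00388% at 4 h (exact permutation test, adjusted p = 0.0476). In the gene fit below, 3 oocyte markers were tested, and 0 were called higher and 0 lower. All these shares are of total counts, a scaling under which the median log2 fold change of all genes tested was 0.65. The oocyte marker Kit had 7.38, 28.4 and 2.40 CPM at 8 h and 0.948 to 19.6 CPM at 4 h. Theca and stroma markers took 0.0532% ± 0.0375 and 0.0393% ± 0.0262 (SD, n = 3 and 6), groups that overlapped (exact permutation test, adjusted p = 0.529). Immune markers summed to 0.00411% ± 0.000250 at 8 h and 0.00102% ± 0.000719 at 4 h (exact permutation test, adjusted p = 0.0476). Lyz2, the 1 immune marker tested, had 26.2, 25.5 and 27.8 CPM at 8 h and 2.13 to 22.4 CPM at 4 h. Its log2 fold change of 1.48 turned to −0.81 with the 9 libraries at 8 h of the other plate. Surface epithelium markers summed to 0.00273% ± 0.00328 and 0.000154% ± 0.000118 (exact permutation test, adjusted p = 0.0476). Endothelial markers did not separate the groups, with 0.00375% ± 0.00322 at 8 h and 0.00111% ± 0.000774 at 4 h (exact permutation test, adjusted p = 0.179). Each of the lists other than granulosa stayed a very small part of a library, and the part of such cells in the gene results was not tested. In whole follicles, fewer cells of a type and less RNA per cell cannot be told apart.

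Between 4 h and 8 h a large part of the measured transcriptome changed. Of 8410 genes tested, 1817 (21.6%) were higher and 1485 (17.7%) lower at 8 h by the quasi-likelihood test of edgeR after Benjamini-Hochberg adjustment at 0.05, with counts scaled by TMM. At an unadjusted p under 0.05 there were 4024. The ranges of the 8 h and 4 h samples did not overlap for 1438 of the genes called higher and 1219 of those called lower, and 500 rose and 408 fell by over 4-fold. The median log2 fold change of all genes tested was 0.07. Scaling by total counts alone moved that median to 0.65 and gave 3340 higher and 706 lower, so the balance of rises and falls depends on the scaling. Values below are CPM, counts scaled to a common library size, by TMM, and log2 fold changes are 8 h over 4 h with a standard error (SE). The counts of each list are to be read against the 21.6% higher and 17.7% lower of all genes. No list was tested as a set. The 12 largest rises and 12 largest falls were named only from genes without overlap, so the separation of their samples is no further evidence.

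**Figure D1:**
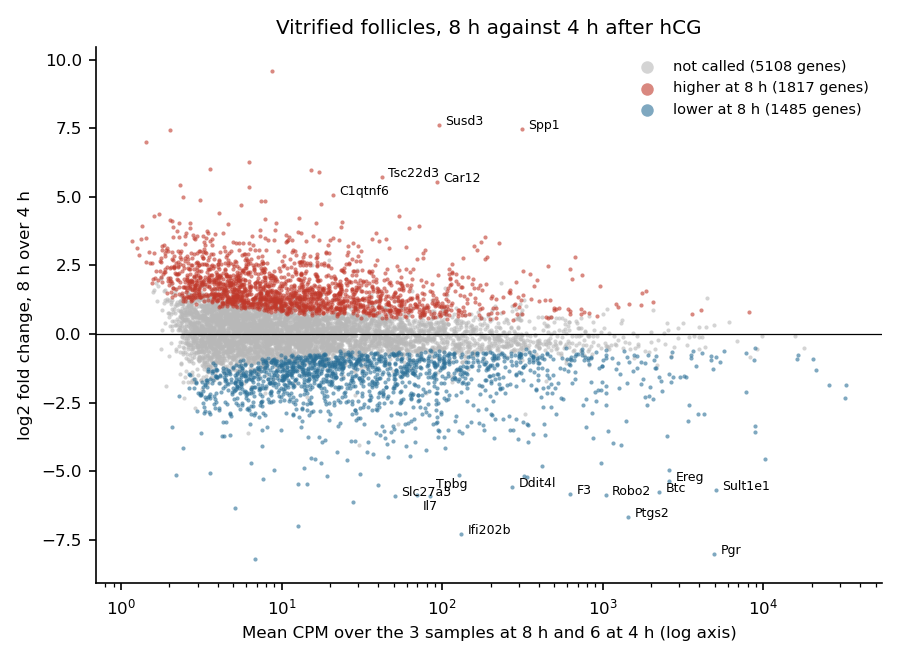
Each point is a gene, with its mean CPM over the 3 samples at 8 h and 6 at 4 h on a log axis and its log2 fold change, 8 h over 4 h, with genes called higher and lower in colour. Labels mark those of the 12 largest rises and 12 largest falls under the rule for named genes whose change is above 5 in size. Labelled genes include Susd3, Spp1 and Tsc22d3 above 0 and Pgr, Ptgs2 and Btc below it. Other genes with a change above 5, such as Hspb1 and Bmp2, are not labelled.

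EGF-like growth factors carry the signal of luteinizing hormone from mural to cumulus cells, and their RNA was among the most reduced. Of 10 members of the ligand and receptor list tested, the ligands Areg, Btc and Ereg fell and the receptors Egfr and Erbb2 rose; the list median was −0.79, and 0.33 with the 9 libraries at 8 h of the other plate. Ereg (epiregulin; chromosome 5, 91074617 to 91093649, GRCm38.p6) had 66.4, 38.4 and 172 CPM at 8 h, against 1766 to 5482 CPM at 4 h (median 3832). The highest 8 h sample was far below the lowest 4 h sample, and the log2 fold change was −5.38 ± 0.61 (SE; adjusted p = 6.26e-05). In the 9 libraries of the other plate Ereg fell less (−1.73). Btc (betacellulin; chromosome 5, 91357261 to 91402994) had 51.2, 27.4 and 107 CPM at 8 h, against 2158 to 4834 CPM at 4 h (median 3293). Its fall was of the same order, −5.75 ± 0.48 (adjusted p = 3.62e-06), and again without overlap. Areg (amphiregulin; chromosome 5, 91139599 to 91148432) had 11.1, 3.77 and 50.0 CPM at 8 h and 332 to 983 CPM at 4 h (median 565), a change of −4.80 ± 0.84 (adjusted p = 0.00171). All 3 ligands were highest in replicate 3 of the 8 h group. Without that library the changes were −6.53 for Areg, −6.24 for Ereg and −6.46 for Btc, and each was still called. Erbb2, the coreceptor that pairs with other EGF receptor family members, had 68.4, 51.6 and 55.6 CPM at 8 h and 13.4 to 33.9 CPM at 4 h (median 28.9; log2 fold change 1.16 ± 0.29, adjusted p = 0.00567). The groups stood apart for Erbb2, but its call was lost with the 9 libraries of the other plate in place of the 3 (0.40). Egfr, the receptor of these ligands, had 133, 99.5 and 56.3 CPM at 8 h and 24.1 to 74.0 CPM at 4 h (1.06 ± 0.35, adjusted p = 0.0269), with an overlap, and its call was lost in 5 of the fits that left out a library (0.75 without replicate 1 of the 8 h group).

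Promoter stretches are shown for genes of the early response whose RNA fell between 4 h and 8 h and whose window held a short cAMP response element, since hCG acts through cAMP. The sequences are from RefSeq on GRCm38.p6, 5′ to 3′ on the strand of the gene and ending at the base before the start of the transcript in that table, and capitals mark TGACG or its reverse complement.
Areg: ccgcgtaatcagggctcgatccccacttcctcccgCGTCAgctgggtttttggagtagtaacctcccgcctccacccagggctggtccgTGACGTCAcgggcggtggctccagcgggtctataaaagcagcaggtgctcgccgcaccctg
Btc: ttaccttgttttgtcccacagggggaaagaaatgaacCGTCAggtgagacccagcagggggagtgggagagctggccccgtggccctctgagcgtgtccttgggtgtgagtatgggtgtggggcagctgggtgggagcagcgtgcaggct
Nr4a1: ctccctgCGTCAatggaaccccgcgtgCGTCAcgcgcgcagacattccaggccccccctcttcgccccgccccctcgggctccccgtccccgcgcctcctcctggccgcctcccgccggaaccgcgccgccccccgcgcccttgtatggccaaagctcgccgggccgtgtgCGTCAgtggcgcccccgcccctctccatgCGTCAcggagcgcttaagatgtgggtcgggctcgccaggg
Nr4a3: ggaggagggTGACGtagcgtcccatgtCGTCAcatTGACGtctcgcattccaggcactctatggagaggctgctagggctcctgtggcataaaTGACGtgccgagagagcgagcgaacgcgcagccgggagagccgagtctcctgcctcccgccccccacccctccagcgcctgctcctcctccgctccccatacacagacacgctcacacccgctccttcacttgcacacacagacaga
Btg2: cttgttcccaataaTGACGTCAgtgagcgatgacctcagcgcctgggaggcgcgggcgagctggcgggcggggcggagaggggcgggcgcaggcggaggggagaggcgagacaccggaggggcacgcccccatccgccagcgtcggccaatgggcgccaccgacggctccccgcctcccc
The stretches lie at chr5:91139449-91139598 on the plus strand for Areg, chr5:91402995-91403144 on the minus strand for Btc, chr15:101266606-101266845 (plus) for Nr4a1, chr4:48045065-48045304 (plus) for Nr4a3 and chr1:134079156-134079335 (minus) for Btg2. In the Areg stretch the whole palindrome TGACGTCA was present and gave matches that begin 61 and 58 bases before the start, beside a further TGACG match at 115. Btg2 also held the palindrome, at 166 and 163. The windows of Nr4a1 and Nr4a3 held 4 matches each, that of Btc 1. Both strands of the 250 bases before the start were searched. TGACG occurred in 17.9% of the 27025 promoters of the table and TGACGTCA, which contains it, in 1.62%. Among the genes tested that had a promoter, the shares were 29.7% and 2.91%. A promoter was at hand for 6116 of the 8410 genes tested, under the 80% needed, so that a comparison of motif shares between the called genes is void. A match is a description and not a binding site.

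Prostaglandin genes divided by enzyme. Of 11 tested, 6 rose and 4 fell, with a median of 1.12 (4 and 1 with the 9 libraries of the other plate, median 0.28). Ptgs2, the inducible prostaglandin synthase (chromosome 1, 150100031 to 150108234), had 18.4, 17.6 and 26.3 CPM at 8 h, against 772 to 3594 CPM at 4 h (median 2190.0). The 8 h samples were close together and 103-fold lower on the fitted scale, a log2 fold change of −6.68 ± 0.54 (adjusted p = 3.15e-06). Ptgs1, the constitutive form of the enzyme, had 46.3, 5.28 and 52.5 CPM at 8 h and 0 to 4.06 CPM at 4 h (median 1.995), and rose by 4.25 ± 0.72 (adjusted p = 0.000962). The RNA of the 2 synthases therefore moved in opposite directions, Ptgs1 from a very low level. Slco2a1, which carries prostaglandins into cells, had 82.8, 26.3 and 232 CPM at 8 h and 5.24 to 21.8 CPM at 4 h (median 8.94; 3.46 ± 0.60, adjusted p = 0.00135). Akr1b3, an aldose reductase that can make prostaglandin F, had 339.7, 268 and 826 CPM at 8 h and 136 to 176 CPM at 4 h (1.61 ± 0.29, adjusted p = 0.000663). Pla2g4a, the phospholipase that frees arachidonic acid, had 14.8, 12.2 and 4.80 CPM at 8 h and 24.97 to 80.2 CPM at 4 h (−2.21 ± 0.41, adjusted p = 0.000937). Each of these groups was free of overlap. With the 9 libraries of the other plate the fall of Pla2g4a was not called (−0.55) and the rise of Akr1b3 was smaller (0.76).

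Genes of the hyaluronan matrix, which swells the cumulus around the oocyte, were lower for 8 of 16 tested, while 1 rose and 7 did not pass the test. The list median was −0.75; under total counts alone 2 were higher and 5 lower, and by limma 2 and 2 (median −0.052). Tnfaip6, which links hyaluronan chains into the matrix, had 81.5, 32.1 and 252 CPM at 8 h, against 1596 to 7420 CPM at 4 h (median 3671), a change of −4.97 ± 0.86 (adjusted p = 0.00159). Has2, the main hyaluronan synthase of cumulus cells, had 0.410, 1.63 and 1.27 CPM at 8 h and 4.06 to 15.1 CPM at 4 h (median 7.02; −2.75 ± 0.54, adjusted p = 0.00123). Neither gene had an 8 h sample within the 4 h range. Ugdh, which makes the sugar precursor of hyaluronan, had 94.2, 61.9 and 32.2 CPM at 8 h and 455 to 846 CPM at 4 h (−3.29 ± 0.37, adjusted p = 1.87e-05). The hyaluronan receptor Cd44 had 3.28, 6.41 and 6.35 CPM at 8 h and 13.6 to 103 CPM at 4 h (−2.88 ± 0.64, adjusted p = 0.00452). The one member that rose was Hyal1, which breaks hyaluronan down. It had 7.38, 3.40 and 5.79 CPM at 8 h and 0 to 1.16 CPM at 4 h (4.14 ± 0.75, adjusted p = 0.000719), a rise at a low level.

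Pgr, the progesterone receptor and a gene without which mouse follicles fail to rupture, had the largest fall of any gene under the rule for named genes (chromosome 9, 8898900 to 8968611). It had 15.6, 7.04 and 62.1 CPM at 8 h, against 5764 to 8724 CPM at 4 h (median 7451). That is a log2 fold change of −8.02 ± 0.76 (adjusted p = 2.57e-05), 259.8-fold on the fitted scale, and −9.46 without replicate 3 of the 8 h group. Among 19 tested genes of the receptor and its ovulatory effectors 9 fell and 5 rose, with a median of −0.85. The balance turned under total counts alone and with the 9 libraries of the other plate, where in each case 7 were higher and 6 lower (medians −0.24 and −0.19). Zbtb16, a zinc finger factor, rose, with 91.0, 68.2 and 65.9 CPM at 8 h and 5.57 to 12.3 CPM at 4 h (3.04 ± 0.27, adjusted p = 3.39e-06). Epas1, which encodes a hypoxia-inducible factor, had 748, 261 and 167 CPM at 8 h and 31.8 to 51.0 CPM at 4 h (3.22 ± 0.36, adjusted p = 2.49e-05). Zbtb16 and Epas1 were higher at 8 h, where the receptor RNA was far below its 4 h level, and their dependence on the receptor was not tested. Snap25, part of the vesicle fusion machinery, had 20.9, 4.02 and 61.1 CPM at 8 h and 0.973 to 7.13 CPM at 4 h (3.06 ± 0.71, adjusted p = 0.00615), and 1 sample at 8 h lay within the 4 h range. Runx1, a transcription factor induced by luteinizing hormone, had 233, 132 and 39.1 CPM at 8 h and 992 to 1987 CPM at 4 h (−3.53 ± 0.49, adjusted p = 0.000166). Runx1 showed no such fall in the 9 libraries of the other plate (−0.01). The protease Adamts1, named for its role in ovulation, did not pass the test, with 859, 333 and 506 CPM at 8 h and 344 to 749 CPM at 4 h (0.14 ± 0.31, adjusted p = 0.754), though it was called under total counts alone (0.73) and in the 9 libraries of the other plate (1.50).

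Of 30 proteases and inhibitors tested 8 rose and 6 fell, shares near those of all genes, with a median of 0.08. Plau, urokinase, which activates plasmin, had 1437, 1334 and 939 CPM at 8 h, against 9345 to 18355 CPM at 4 h (median 12073; −3.36 ± 0.31, adjusted p = 3.77e-06). The matrix metalloproteinases Mmp2, Mmp11 and Mmp19 rose. Mmp2, a gelatinase, had 139.7, 170.1 and 119 CPM at 8 h and 6.17 to 47.5 CPM at 4 h (2.38 ± 0.47, adjusted p = 0.0022). Mmp19 had 20.5, 16.3 and 12.4 CPM at 8 h and 0.446 to 3.49 CPM at 4 h (3.24 ± 0.42, adjusted p = 5.65e-05). Mmp11 had 20.5, 42.3 and 8.61 CPM at 8 h and 0 to 2.92 CPM at 4 h (3.79 ± 0.56, adjusted p = 0.000218). All 3 metalloproteinases separated the groups, although Mmp2 was not called with the 9 libraries of the other plate (0.69). Timp1, an inhibitor of metalloproteinases, rose as well, with 382, 523 and 493 CPM at 8 h and 112 to 217 CPM at 4 h (1.54 ± 0.24, adjusted p = 0.000256; 0.86 with the 9 libraries of the other plate). Serpinb9, an inhibitor of granzyme, had 20.1, 15.5 and 21.03 CPM at 8 h and 49.6 to 362 CPM at 4 h (−3.19 ± 0.56, adjusted p = 0.000967). Under scaling by total counts alone 15 members were higher and 2 lower, and with the 9 libraries of the other plate 7 were higher and 9 lower.

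In the pathway of progesterone synthesis 4 of 16 tested genes rose and 5 fell; the median was −0.28, and 0.32 under scaling by total counts alone. Scarb1, the receptor that takes up cholesterol from lipoproteins, had 1197, 656 and 501 CPM at 8 h, against 3358 to 16323 CPM at 4 h (median 4048; −2.93 ± 0.62, adjusted p = 0.00402). Fdx1, the electron carrier of mitochondrial steroid enzymes, had 1403, 1005 and 1918 CPM at 8 h and 3326 to 5268 CPM at 4 h (−1.55 ± 0.26, adjusted p = 0.000366). The reductase that feeds it, Fdxr, moved the other way. It had 154, 108 and 102 CPM at 8 h and 25.8 to 43.0 CPM at 4 h (1.80 ± 0.24, adjusted p = 7.62e-05). Tspo, an outer mitochondrial membrane protein, had 57.4, 80.2 and 52.9 CPM at 8 h and 6.496 to 16.8 CPM at 4 h (2.74 ± 0.29, adjusted p = 1.12e-05). Cyp11a1, which cuts the side chain of cholesterol, had 2027, 1218 and 4230 CPM at 8 h and 4181 to 8258 CPM at 4 h (−1.27 ± 0.34, adjusted p = 0.00957), with 1 overlapping sample. Its call was lost under total counts alone, by limma and in both fits with more groups. Star, which moves cholesterol into mitochondria, varied widely at 8 h, with 2594, 1833 and 11859.8 CPM, against 5118 to 12607 CPM at 4 h (−0.83 ± 0.53, adjusted p = 0.242). Without replicate 3 it was called lower (−2.15), as in the 9 libraries of the other plate (−2.08). Hsd3b1, which completes progesterone, had 7361, 7766 and 5833 CPM at 8 h and 7305 to 12863 CPM at 4 h (−0.55 ± 0.23, adjusted p = 0.073). Of 14 luteal cell genes tested 4 rose and 4 fell (5 and 2 under total counts alone), with Prlr, the prolactin receptor, at 241, 316 and 236 CPM at 8 h and 109 to 156 CPM at 4 h (1.10 ± 0.21, adjusted p = 0.000961).

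Of 18 estradiol and FSH-dependent granulosa genes tested 9 fell, 2 rose and 7 did not pass the test; the median was −1.0, and under total counts alone 5 were higher and 7 lower (median −0.41). Inha, the inhibin alpha subunit, was the named gene with the most RNA per length at 8 h apart from gene models without a given name, with a mean level per transcript length (TPM) of 20477 at 8 h and 46040 at 4 h. In CPM it had 13259.8, 10944 and 11589 at 8 h, against 36185 to 49529 at 4 h (median 44755; −1.86 ± 0.21, adjusted p = 1.71e-05). Inhba, the beta subunit shared by inhibin A and activin, fell further, with 324, 892 and 660.3 CPM at 8 h and 10770.4 to 18878 CPM at 4 h (median 15472; −4.58 ± 0.36, adjusted p = 2.1e-06). Both subunits were without overlap. Sult1e1, which inactivates estrogens by sulfation, had 193, 17.5 and 225 CPM at 8 h and 4493 to 10187 CPM at 4 h (−5.70 ± 0.81, adjusted p = 0.000511). Cyp19a1, the aromatase that makes estradiol, was already low at 4 h, with 0.820, 5.91 and 2.12 CPM at 8 h and 8.92 to 17.5 CPM at 4 h (−1.85 ± 0.46, adjusted p = 0.00591), and fell further with the 9 libraries of the other plate (−4.12). Igf1 fell by 2.43 ± 0.35 on the log2 scale (adjusted p = 0.000122). Fshr, the FSH receptor, rose, with 45.9, 26.4 and 28.9 CPM at 8 h and 0.948 to 8.71 CPM at 4 h (median 1.67; 3.70 ± 0.49, adjusted p = 8.08e-05). The receptor for luteinizing hormone, Lhcgr, had 902, 312 and 356 CPM at 8 h and 39.1 to 578 CPM at 4 h and did not pass the test (1.24 ± 0.68, adjusted p = 0.174), though it was called under total counts alone (1.84), by limma (2.01) and without the summed 4 h pair (1.81). Fst, follistatin, which binds activin, had 12.7, 7.80 and 7.48 CPM at 8 h and 35.98 to 82.3 CPM at 4 h (−2.58 ± 0.34, adjusted p = 6.19e-05), a fall not seen in the 9 libraries of the other plate (−0.20).

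Of 9 tested genes that hold the oocyte in meiotic arrest or link it to its cumulus cells, 3 fell and 1 rose (median −0.88). Gja1, a gap junction connexin, had 664, 1940.3 and 571 CPM at 8 h, against 9601 to 14532 CPM at 4 h (median 13334; −3.59 ± 0.40, adjusted p = 2.18e-05). Bmpr2, a receptor for oocyte-derived BMP15, had 26.2, 16.8 and 15.8 CPM at 8 h and 63.2 to 106 CPM at 4 h (−2.14 ± 0.29, adjusted p = 7.32e-05), and fell less in the 9 libraries of the other plate (−0.84). Npr2, the guanylyl cyclase that makes the cGMP of meiotic arrest, had 0.820, 3.77 and 4.38 CPM at 8 h and 5.45 to 15.2 CPM at 4 h (−1.43 ± 0.45, adjusted p = 0.0214). The call for Npr2 was lost without replicate 1 of the 8 h group (−1.11), under scaling by total counts alone and by limma. Amhr2, the receptor for anti-Müllerian hormone, had 11.9, 14.1 and 6.78 CPM at 8 h and 1.40 to 5.45 CPM at 4 h (1.65 ± 0.41, adjusted p = 0.00532), and was not called after correction for GC content and length (0.89).

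Immediate early genes switch on soon after the stimulus, and feedback genes restrain the same signals. Of 19 immediate early genes tested 7 fell, 1 rose and 11 did not pass the test, with a median of −0.51, or 0.06 under total counts alone, where 4 were higher and 4 lower. Nr4a1, an orphan nuclear receptor, had 228, 225 and 370.4 CPM at 8 h, against 2191 to 4680.5 CPM at 4 h (median 3767; −3.73 ± 0.31, adjusted p = 2.8e-06). Its relative Nr4a3 had 3.69, 9.18 and 27.2 CPM at 8 h and 55.2 to 166 CPM at 4 h (−2.92 ± 0.60, adjusted p = 0.00287). Btg2, an antiproliferative gene, had 29.9, 23.1 and 42.1 CPM at 8 h and 54.5 to 172 CPM at 4 h (−1.89 ± 0.38, adjusted p = 0.00152). These are the 3 genes with promoter stretches above besides the ligands, and no 8 h sample reached the 4 h range in any of them. The call for Btg2 was lost with all 83 libraries in the fit. The member that rose was Fos, part of the AP-1 factor, with 68.4, 59.5 and 81.0 CPM at 8 h and 24.5 to 57.1 CPM at 4 h (0.79 ± 0.26, adjusted p = 0.0273; named after its values were seen). Its call was lost in 4 of the fits that left out a library, after correction for GC content and length (0.22), with all 83 libraries in the fit and in the 9 libraries of the other plate (−0.05).

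Among genes of cAMP feedback 6 of 12 tested fell and 0 rose (median −1.03; 4 and 1 under total counts alone). Sik1, a kinase that restrains cAMP-driven transcription, had 22.1, 23.01 and 80.9 CPM at 8 h and 277 to 862 CPM at 4 h (−3.64 ± 0.53, adjusted p = 0.000246). Crem, whose short form represses cAMP response elements, had 9.83, 9.18 and 30.6 CPM at 8 h and 75.1 to 146 CPM at 4 h (−2.70 ± 0.41, adjusted p = 0.000213). Prkar2b, a regulatory subunit of protein kinase A, fell by 3.46 ± 0.59 (adjusted p = 0.000858), and by less with the 9 libraries of the other plate (−1.96). Of 11 genes of MAPK feedback 5 fell and 2 rose (median −1.03, and 0.17 with the 9 libraries of the other plate), but under total counts alone, and also by limma, 2 were higher and 2 lower. Spry2, an inhibitor of receptor tyrosine kinase signals, had 1.64, 0.754 and 3.11 CPM at 8 h and 11.7 to 51.7 CPM at 4 h (−3.86 ± 0.57, adjusted p = 0.000181), and the phosphatase gene Dusp10 had 4.51, 3.90 and 13.6 CPM at 8 h and 27.9 to 100.3 CPM at 4 h (−2.76 ± 0.51, adjusted p = 0.00106). Dusp1, another MAPK phosphatase, rose instead, with 118, 56.8 and 101 CPM at 8 h and 19.2 to 31.4 CPM at 4 h (1.89 ± 0.26, adjusted p = 9.91e-05).

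Of 12 tested genes known to respond to glucocorticoids or progestins 5 rose and 2 fell (median 0.94). Tsc22d3 and Fkbp5 were among the 12 largest rises under the rule for named genes. Tsc22d3, also called GILZ (chromosome X, 140539528 to 140600522), had 213, 74.6 and 77.9 CPM at 8 h, against 0.699 to 3.12 CPM at 4 h (median 2.35; 5.73 ± 0.41, adjusted p = 9.55e-07). Fkbp5, a cochaperone of steroid receptors, had 118, 145 and 35.7 CPM at 8 h and 5.45 to 10.7 CPM at 4 h (median 7.44; 3.67 ± 0.36, adjusted p = 9.4e-06). Neither gene came near an overlap, and a lack of overlap was part of that rule. The mineralocorticoid receptor Nr3c2 fell, with 2.46, 4.401 and 1.69 CPM at 8 h and 8.54 to 37.1 CPM at 4 h (−2.76 ± 0.52, adjusted p = 0.00106). In the circadian clock list 5 of 10 tested rose and 2 fell (median 0.48). Rora, a nuclear receptor that activates clock genes, had 152, 56.8 and 97.3 CPM at 8 h and 2.78 to 14.6 CPM at 4 h (3.40 ± 0.41, adjusted p = 4.63e-05). Nr1d1, which competes with it, rose too, with 19.3, 17.9 and 15.8 CPM at 8 h and 0.948 to 4.19 CPM at 4 h (2.83 ± 0.38, adjusted p = 8.03e-05; 1.38 with the 9 libraries of the other plate).

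Of 32 tested genes of glycolysis and the hypoxia response 15 rose and 2 fell (median 0.78). Adm, the vasodilating peptide adrenomedullin, had 31.96, 4.65 and 26.5 CPM at 8 h, against 0 to 2.23 CPM at 4 h (median 1.22; 4.18 ± 0.67, adjusted p = 0.000428). Ddit4, an inhibitor of mTOR, had 65.2, 43.0 and 22.4 CPM at 8 h and 2.78 to 5.94 CPM at 4 h (3.44 ± 0.35, adjusted p = 9.84e-06). Both rose without overlap. Adm averaged 1.14 ± 0.869 CPM in the 9 libraries of the other plate, 24.2 ± 16.4 CPM in the 3 of the shared plate and 1.32 ± 0.809 CPM at 4 h (SD, all libraries on 1 scale). Ddit4 rose less with the libraries of the other plate (1.83). Bnip3, a mitophagy receptor, had 444, 232 and 610.3 CPM at 8 h and 8.13 to 136 CPM at 4 h (2.74 ± 0.67, adjusted p = 0.00991), and was no longer called without replicate 3 of the 8 h group (2.36). P4ha2, a collagen prolyl hydroxylase, had 23.4, 22.8 and 32.2 CPM at 8 h and 2.32 to 11.1 CPM at 4 h (2.26 ± 0.37, adjusted p = 0.000319). The glycolytic enzyme gene Pfkl had 363, 354 and 169 CPM at 8 h and 29.03 to 131 CPM at 4 h (2.08 ± 0.42, adjusted p = 0.002). Other steps of the pathway did not pass the test: Ldha, lactate dehydrogenase, had 4952, 4702 and 7441 CPM at 8 h and 2460.3 to 6982 CPM at 4 h (0.32 ± 0.30, adjusted p = 0.424), though it was called higher under total counts alone (0.92) and by limma (1.06) and lower in the 9 libraries of the other plate (−1.08). The list did not hold its direction in the 9 libraries of the other plate, where 7 members were higher and 10 lower (median −0.17), with Bnip3 at 0.39, P4ha2 at 0.17 and Pfkl at 0.16. Correction for GC content and length left 9 higher and 2 lower.

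Promoter stretches of 3 of these genes are shown because each holds ACGTG, the core to which hypoxia-inducible factors bind. Capitals mark ACGTG or its reverse complement, and the source, strand and reading direction are as above.
Bnip3: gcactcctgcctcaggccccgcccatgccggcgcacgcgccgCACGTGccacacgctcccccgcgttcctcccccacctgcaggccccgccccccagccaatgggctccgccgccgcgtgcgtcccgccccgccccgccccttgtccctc
P4ha2: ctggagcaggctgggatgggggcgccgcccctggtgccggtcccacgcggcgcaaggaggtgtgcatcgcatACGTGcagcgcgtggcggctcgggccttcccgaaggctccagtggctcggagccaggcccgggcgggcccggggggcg
Ddit4: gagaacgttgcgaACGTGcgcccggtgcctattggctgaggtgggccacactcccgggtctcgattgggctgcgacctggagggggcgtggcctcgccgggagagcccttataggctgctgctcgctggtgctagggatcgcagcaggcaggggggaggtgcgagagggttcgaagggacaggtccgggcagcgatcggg
They lie at chr7:138909507-138909656 (minus strand) for Bnip3, chr11:54100774-54100923 (plus) for P4ha2 and chr10:59951771-59951970 (minus) for Ddit4. In Bnip3 the match was the palindrome CACGTG, an E-box that contains the core on both strands, 108 bases before the start. In P4ha2 it began 78 and in Ddit4 187 bases before the start. ACGTG occurred in 16.6% of the 27025 promoter windows of 250 bases, and in 23.7% of those of the genes tested. The stretches describe sequence only, and Epas1 binding was not measured.

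Genes of cholesterol and lipid metabolism changed in both directions. Of 20 cholesterol synthesis genes 7 rose and 5 fell (median 0.60), or 11 and 2 under total counts alone and 4 and 4 after correction for GC content and length. Mvk and Ebp were among those that rose. Mvk, mevalonate kinase, had 11.9, 17.9 and 11.9 CPM at 8 h and 0.446 to 4.65 CPM at 4 h (2.92 ± 0.45, adjusted p = 0.000203). Ebp, a sterol isomerase, had 13.1, 14.7 and 23.01 CPM at 8 h and 0.928 to 4.74 CPM at 4 h (2.82 ± 0.40, adjusted p = 0.000122; 1.83 with the 9 libraries of the other plate). Among 24 lipid droplet and fatty acid genes 11 rose and 3 fell (median 0.18). Angptl4, an inhibitor of lipoprotein lipase, had 253, 157 and 526 CPM at 8 h and 23.8 to 68.1 CPM at 4 h (2.78 ± 0.35, adjusted p = 5.66e-05). The droplet coat gene Plin3 had 44.7, 30.8 and 22.3 CPM at 8 h and 4.01 to 6.03 CPM at 4 h (2.58 ± 0.28, adjusted p = 1.45e-05). Scd1, a fatty acid desaturase, had 607, 279 and 800.02 CPM at 8 h and 79.8 to 247 CPM at 4 h (1.90 ± 0.38, adjusted p = 0.0016). None of these 5 genes overlapped between the groups. In cholesterol uptake, storage and control 6 of 19 rose and 4 fell (median 0.62, −0.024 without replicate 1 of the 8 h group and 0.094 with the 9 libraries of the other plate); Lipe, the hormone-sensitive lipase, rose by 2.43 ± 0.38 (adjusted p = 0.000264).

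Several of the largest changes were in genes outside these lists or with roles apart from ovulation. Spp1, osteopontin, a secreted adhesion protein (chromosome 5, 104435111 to 104441053), had 1014, 1030.1 and 736 CPM at 8 h, against 3.12 to 13.4 CPM at 4 h (median 4.03; 7.48 ± 0.39, adjusted p = 8.7e-08). Susd3, which encodes a sushi domain protein (chromosome 13, 49230511 to 49248706), had 312, 136 and 405 CPM at 8 h and 0 to 2.92 CPM at 4 h (7.61 ± 0.57, adjusted p = 3.59e-06). Both were far above every 4 h sample in each 8 h sample, and the rule that named them required groups without overlap. Car12, a carbonic anhydrase, rose by 5.56 ± 0.42, C1qtnf6 by 5.06 ± 0.48, the histamine-forming enzyme gene Hdc by 4.31 ± 0.49, and the caveola protein gene Cav1 by 3.93 ± 0.32. With the 9 libraries of the other plate the rises were smaller for Car12 (3.54), C1qtnf6 (2.81) and Cd34 (2.18). Cd34, a sialomucin also found on endothelial and stromal cells, had 638, 497 and 277 CPM at 8 h and 26.3 to 59.4 CPM at 4 h (3.53 ± 0.30, adjusted p = 2.9e-06). In the same 8 h libraries the 10 endothelial markers summed to 0.00355%, 0.00706% and 0.000628% of counts. The cells that gave the Cd34 RNA were not tested. Among the falls, F3, tissue factor, which starts blood clotting, had 8.61, 10.1 and 29.9 CPM at 8 h and 269.7 to 1525 CPM at 4 h (−5.82 ± 0.70, adjusted p = 0.000107). Il7, a cytokine, had 2.05, 1.01 and 2.26 CPM at 8 h and 61.5 to 143 CPM at 4 h (−5.89 ± 0.41, adjusted p = 9.55e-07). Robo2, a receptor of the Slit family of guidance cues, had 25.4, 35.2 and 18.6 CPM at 8 h and 1039 to 1826 CPM at 4 h (−5.87 ± 0.35, adjusted p = 2.05e-07). Bmp2, a secreted growth factor, had 6.97, 21.6 and 10.6 CPM at 8 h and 377 to 734 CPM at 4 h (−5.22 ± 0.41, adjusted p = 2.1e-06). Ifi202b fell by 7.28 ± 0.91, with reads that near-identical family members could share.

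General gene expression machinery divided by class. Of 72 nuclear-encoded genes of oxidative phosphorylation 26 rose and 1 fell (median 0.50); under total counts alone 44 rose and under GC and length correction 24 rose and 5 fell. Ndufa10, a subunit of complex I, had 43.0, 50.5 and 82.4 CPM at 8 h, against 4.46 to 14.2 CPM at 4 h (2.57 ± 0.34, adjusted p = 6.49e-05). Ndufv2, of the same complex, had 45.1, 53.4 and 53.1 CPM at 8 h and 9.48 to 16.8 CPM at 4 h (2.01 ± 0.23, adjusted p = 2.48e-05). Neither had overlapping groups. Of 35 proteasome subunits 11 rose and 1 fell (median 0.39), or 32 and 0 under total counts alone. Splicing proteins of the hnRNP and SR families went the other way, with 0 of 26 higher and 12 lower (median −0.83); under total counts alone 1 was higher and 8 lower (median −0.26), and by limma 1 and 4 (median −0.089). Hnrnpdl had 54.9, 43.3 and 52.7 CPM at 8 h and 191 to 270.04 CPM at 4 h (−2.21 ± 0.24, adjusted p = 1.51e-05). Cytosolic ribosomal proteins showed 28 of 81 lower and 0 higher (median −0.52), but under total counts alone 0 were lower and 2 higher (median 0.06), and reads of pseudogene copies could be shared, so their direction depends on the scaling. Of 20 aminoacyl-tRNA synthetases 9 fell and 2 rose (median −0.34), but under total counts alone 6 were lower and 8 higher (median 0.25). Gars, for glycine, had 69.7, 71.2 and 54.5 CPM at 8 h and 252 to 348 CPM at 4 h (−2.16 ± 0.23, adjusted p = 1.38e-05). The cationic amino acid transporter Slc7a1 had 79.5, 92.4 and 112 CPM at 8 h and 583 to 940.2 CPM at 4 h (−2.93 ± 0.26, adjusted p = 3.52e-06). Of 61 translation factors 17 fell and 8 rose (median −0.24), but under total counts alone 6 were lower and 22 higher (median 0.34).

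**Figure D2:**
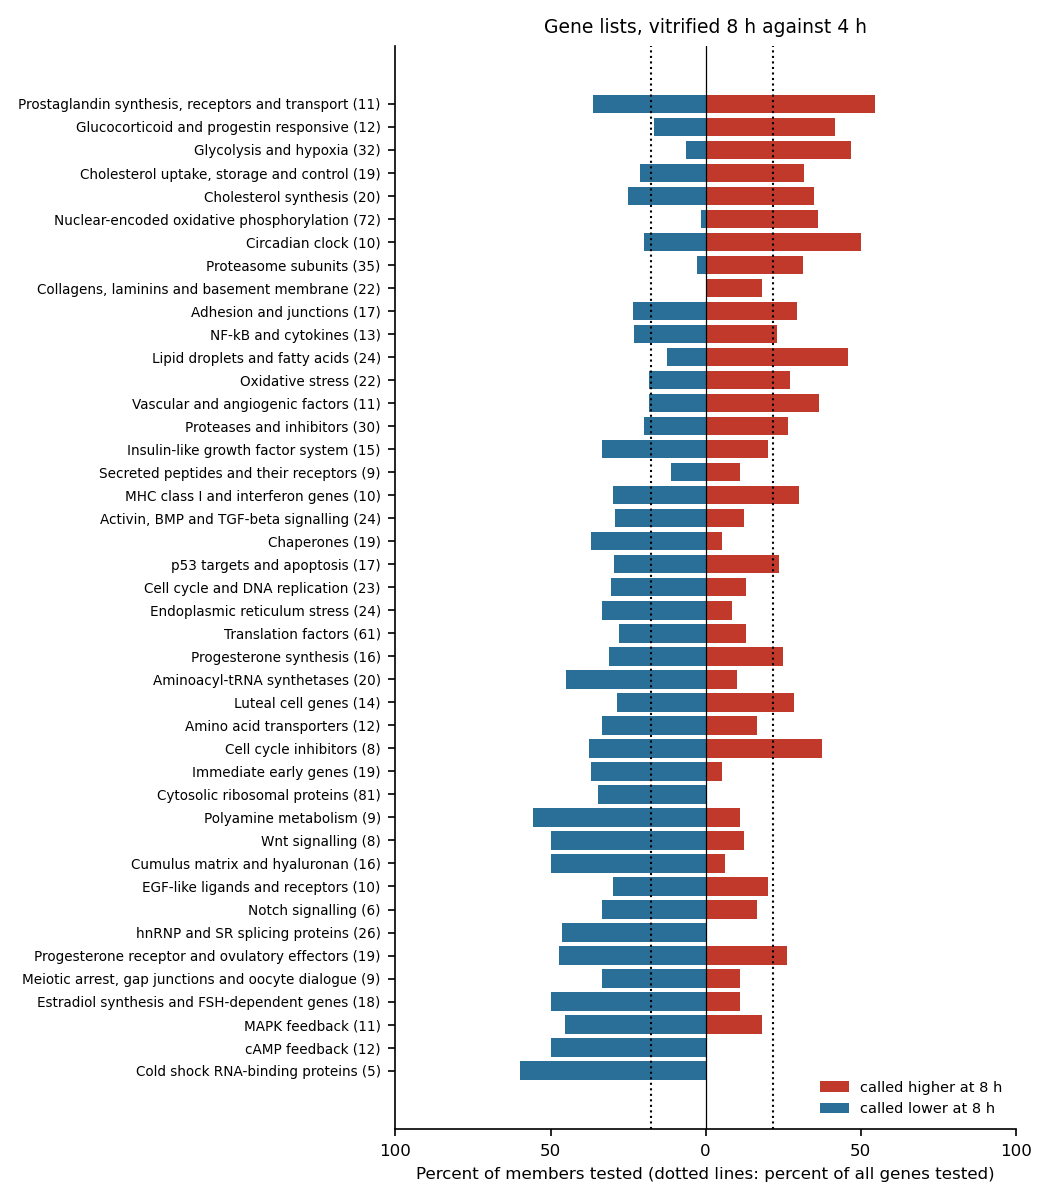
Percent of the tested members of each gene list called higher and lower at 8 h, with the number tested in brackets and dotted lines at the 21.6% and 17.7% of all genes; lists with under 5 tested members are left out. Bars for oxidative phosphorylation and for glycolysis and hypoxia lie mainly on the higher side, and those for cAMP feedback, splicing proteins and the hyaluronan matrix on the lower side.

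Called genes differed in transcript length and base composition, which the rule did not use. The longest annotated transcript had a median of 2642 bases and 52.5% GC among genes called higher, and 3958 bases and 46.5% GC among genes called lower, against 3303 bases and 49.8% GC over all genes tested. With genes in 4 equal groups by length, 28.1% were higher and 11.6% lower among the shortest, and among the longest 13.4% were higher and 23.8% lower. With 4 groups by GC content, 11% were higher and 28.2% lower among the lowest, against 31.5% and 9.92% among the highest. Genes called between fresh follicles at 8 h and 4 h showed the same order, 2833 bases and 51.8% GC for those higher and 3674 bases and 47.6% GC for those lower. In the 9 vitrified libraries at 8 h of the other plate the length order was turned, 3430 bases for genes higher and 3231 for genes lower. With counts corrected for GC content and length, 1548 genes were higher, 1315 of them among the 1817, and 1573 were lower, 1200 of them among the 1485. The part of RNA quality or cDNA length in these differences was not tested.

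**Figure D3:**
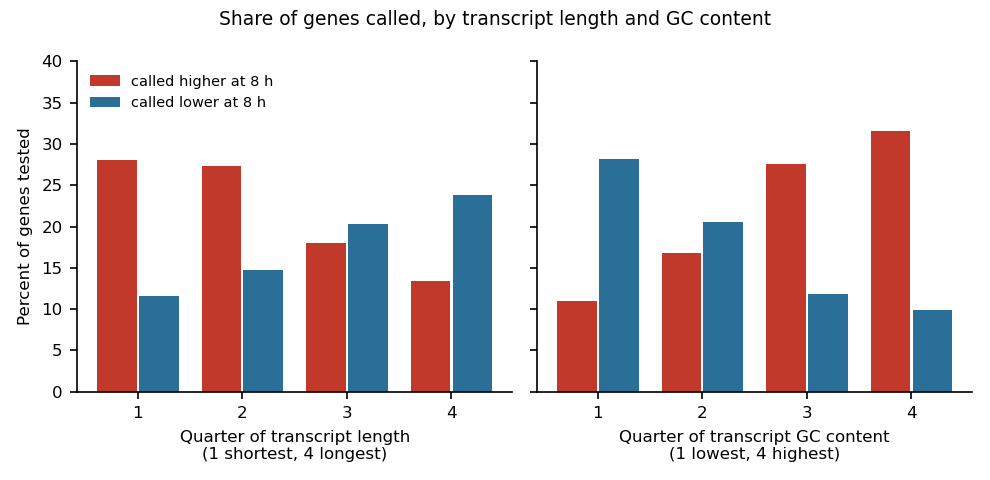
Percent of genes tested that were called higher and lower at 8 h, in 4 equal groups by transcript length and 4 by GC content. Calls higher were most frequent among short and GC-rich transcripts, and calls lower among long and GC-poor ones.

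Whether the change of vitrified follicles from 4 h to 8 h differed from that of fresh follicles was tested as the vitrified log2 fold change minus the fresh one, in 1 fit of the 20 samples of both on the plate. Of 9276 genes tested, 5 (0.0539%) had a positive and 133 (1.43%) a negative difference by edgeR's quasi-likelihood test at an adjusted p of 0.05, and 873 had an unadjusted p under 0.05. In all 133 the vitrified 8 h mean was below the fresh 8 h mean; 130 fell in vitrified follicles, and in 83 the fresh change was positive. DESeq2 gave 219 calls in both directions and limma on log2(TPM + 1) gave 83, while leaving out replicate 2 of the vitrified 8 h group gave 85. Among members of the gene lists, Gata4, Spred2, Ybx1, Edem1, Txnrd1, Btg1, Ctnnb1 and Srsf2 had a negative and Nr4a1, Gapdh and Ftl1 a positive difference. The fresh change was −9.36 ± 0.71 for Pgr, −6.91 ± 0.51 for Ptgs2 and 6.34 ± 0.35 for Spp1.

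Tpbg, a membrane glycoprotein that restrains Wnt signals, had 3.81, 1.29 and 1.92 CPM in vitrified follicles at 8 h, on the scale of this fit, against 45.5, 35.5, 28.6 and 35.5 CPM in fresh follicles at 8 h. At 4 h the levels were 40.3 to 198 CPM in vitrified (median 123) and 67.0 to 154 CPM in fresh follicles (median 85.8). The 8 h groups were far apart and the 4 h groups overlapped, and the difference between the changes was −4.46 ± 0.56 (SE; adjusted p = 0.000113). Ahctf1, a nucleoporin, had 10.6, 8.90 and 9.15 CPM in vitrified and 128, 144, 97.5 and 109 CPM in fresh follicles at 8 h (−3.63 ± 0.43, adjusted p = 3.12e-05). Slc25a33, a mitochondrial pyrimidine nucleotide carrier, had 2.96, 1.81 and 5.02 CPM in vitrified and 17.6, 50.1, 55.8 and 25.3 CPM in fresh follicles at 8 h (−3.84 ± 0.69, adjusted p = 0.00312). In both genes the 4 h levels overlapped. Txnrd1, thioredoxin reductase, Ctnnb1, beta-catenin, Btg1, an antiproliferative gene, and Spred2, an inhibitor of MAPK signals, differed by −2.56 ± 0.42, −2.49 ± 0.43, −2.72 ± 0.51 and −2.03 ± 0.39. Of 19 genes examined, namely the 10 with the largest difference and the list members called, these 7 passed the test in all 33 alternative fits. In none of these fits did the 9 libraries at 8 h of the other plate stand for the vitrified group.

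The other named differences were less stable. Pnrc1, a nuclear receptor coactivator, had 1.27, 3.09 and 3.25 CPM in vitrified and 99.3, 118, 162 and 101 CPM in fresh follicles at 8 h (−4.98 ± 1.13, adjusted p = 0.0318), and lost its call in 14 of 33 alternatives, among them the fits without any one of the vitrified or fresh 8 h libraries. Ybx1, a cold shock domain protein that binds RNA, had 195, 402 and 146 CPM in vitrified and 2978, 4482, 3475 and 3498 CPM in fresh follicles at 8 h (−3.71 ± 0.87, adjusted p = 0.0392). Its 4 h values spread from 140.3 to 3560 CPM in vitrified follicles, and the call was lost in 20 of 33 alternatives. The splicing factor Srsf2 (−3.77 ± 0.91, adjusted p = 0.0421) lost its call in 18. Tspan5 differed by −4.12 ± 0.91 and lost the call without any one vitrified 8 h library and with no low-count filter, Rras2 by −3.81 ± 0.74 and lost it without replicate 2 or 3 of that group, and Phlda3 by −3.70 ± 0.79 and lost it without replicate 2. Wrnip1 differed by −3.66 ± 0.65 and lost it with all 83 libraries in the fit. Among positive differences, Nr4a1 fell less in the vitrified than in the fresh follicles of the shared plate, to 285 ± 89.0 CPM in vitrified and 94.2 ± 27.2 CPM in fresh ones (SD, n = 3 and 4; both at 8 h; difference 1.56 ± 0.38, adjusted p = 0.029), and lost its call in 8 alternatives. In the 9 vitrified libraries at 8 h of the other plate it averaged 99.3 ± 55.6 CPM, against 99.5 ± 20.99 CPM in the 4 fresh ones and 322 ± 128 CPM in the 3 vitrified ones of the shared plate (SD, all libraries on 1 scale). Ftl1 (0.76) lost its call in 26 of 33 alternatives, Gapdh (1.00) and Edem1 (−2.40) in 6 each, and Gata4 (−2.41) in 1.

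The 9 vitrified libraries at 8 h of the other plate were set beside these for the 10 genes with the largest difference. For each gene their mean lay between the vitrified and fresh 8 h means of the shared plate. With all libraries on 1 scale, Tpbg averaged 18.005 ± 12.4 CPM in those 9, 2.55 ± 1.25 CPM in the 3 vitrified libraries of the shared plate and 39.1 ± 8.84 CPM in the 4 fresh ones (SD). Ahctf1 averaged 33.2 ± 18.98, 10.6 ± 0.630 and 129 ± 30.5 CPM in the same order, and Ybx1 789 ± 309.6, 274 ± 149 and 3888 ± 881 CPM. Slc25a33 averaged 13.1 ± 5.70, 3.70 ± 2.12 and 39.6 ± 19.3 CPM. The means of the 3 libraries were thus the lowest for each, and whether plate or follicles set the gap between the vitrified groups cannot be told apart.

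**Figure D4:**
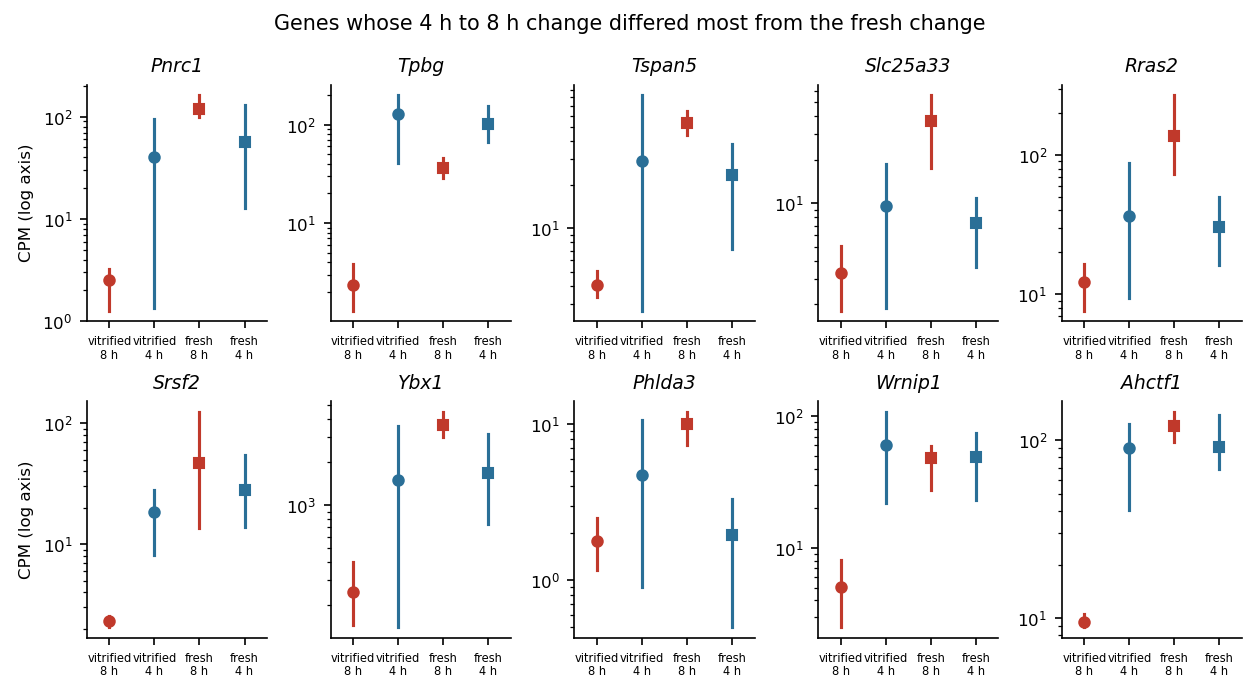
CPM on log axes for the 10 genes whose vitrified and fresh changes differed most, each group's mean as a point and its range from lowest to highest as a bar; circles are vitrified and squares fresh follicles, 8 h left of 4 h. In each panel the vitrified 8 h group lies below the fresh 8 h group, while the 4 h groups overlap; a lowest value of 0 (Phlda3, fresh 4 h) is drawn at 0.5.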

How the data were processed

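RNA was measured in single follicles with full-length cDNA (Smart-Seq2) and Nextera XT libraries, without molecular identifiers and without strand. The authors deposited estimated counts per gene and log2(TPM + 1) values; the submitters' processing notes name Partek, Bowtie2, HISAT2, DESeq2 and the build mm10, with no role or version. For reads that match more than 1 gene, the sources used here give no rule. Of the counts 17.2% were not whole and were rounded. The table's 21 date-like symbols were kept as written, and 0 sample columns were left out for want of a label.

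Groups came from the labels, which give no replicate number, so replicates are numbered in accession order. Replicates 1 and 2 at 4 h were summed after their comparison, a departure from the planned fit. Genes passed edgeR's filterByExpr with a minimum count of 10. The test was edgeR's quasi-likelihood fit, robust, with TMM scaling and Benjamini-Hochberg adjustment at 0.05, on these libraries alone; the difference between the vitrified and fresh changes used 1 fit of 20 samples. Library makeup was compared by exact two-sided permutation tests (84 regroupings). Named genes were the 12 largest changes in each direction with a mean of at least 20 CPM and no overlap, up to 6 called members of each list by size, list members whose role was needed, the 10 largest differences from fresh follicles and the 10 highest levels. Some genes that the rule names are not reported here. The members and the lists were chosen with earlier results of these data known. Alternatives were other scalings and filters, DESeq2, limma on log2(TPM + 1), leaving out libraries, other sample sets, thinned counts and a correction for GC content and length; the sums, thinning and correction were chosen after seeing the data. The fit was tested on simulated data. Tools were R 4.3.3, edgeR 4.0.16, limma 3.58.1, DESeq2 1.42.0, Python 3.11.15, pandas 2.3.3, scipy 1.17.1 and matplotlib 3.10.9.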

Additional observations from a re-analysis of the deposited data

Results flagged for a closer look

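Among 37 groups of 4 to 10 samples, 3 held a sample whose gap to its nearest neighbour was large against the range of the group; chance gives about 1 in 20. The summed 4 h pair had erythroid marker reads, 1.91e-05% of its counts, where the other 4 h samples had none. For Spp1, replicate 6 at 4 h had 13.4 CPM, the highest of its group and far below any 8 h sample. For Tsc22d3, replicate 4 at 4 h had 0.699 CPM, the lowest of its group.

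The change from 4 h to 8 h differed between vitrified and fresh follicles, by the test of the difference itself, for the 10 genes named by size: Pnrc1 (−4.98), Tpbg (−4.46), Tspan5 (−4.12), Slc25a33 (−3.84), Rras2 (−3.81), Srsf2 (−3.77), Ybx1 (−3.71), Phlda3 (−3.70), Wrnip1 (−3.66) and Ahctf1 (−3.63), as vitrified minus fresh log2 fold change. Each had a lower vitrified mean at 8 h than the fresh mean. Their cause was not tested.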

How the results depend on the processing

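With total counts alone 3340 genes were higher and 706 lower, and with a minimum count of 50 they were 1114 and 846. By limma 2505 were higher and 467 lower of 7172 tested. With the 9 libraries at 8 h of the other plate 2677 were higher, 1262 of them among the 1817. In that fit 2088 were lower, 978 of them among the 1485. Leaving out 1 library gave 1466 to 1811 higher and 1237 to 1610 lower. The difference from fresh follicles had 219 calls with DESeq2, 83 with limma, 81 with all 83 libraries in the fit and 85 to 172 with 1 library left out. Of 253 named genes 252 kept direction and side of the threshold with DESeq2, 251 with RLE scaling, 210 with total counts alone, 163 with limma, 225 after GC and length correction and 182 with the 8 h libraries of the other plate; genes not tested under an alternative are not among those kept. No paired analysis was possible because the labels give no replicate numbers, and numbers given in accession order only name libraries.

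Signs turned with the 8 h libraries of the other plate for Hmgcs1 (0.14), Dusp6 (0.21), Hyou1 (0.92), Apaf1 (1.23), Hmox1 (−0.23), Gpx3 (−3.81), Top2a (0.38), Rb1 (0.48), Cry1 (0.77), Per1 (−0.30), Slc7a6 (−0.51), Srsf2 (0.55), Hnrnpll (0.33), Lyz2 (−0.81), Gm4202 (−0.12), Gm13340 (0.31) and Eno1b (−0.71). By limma they turned for H2-D1 (0.0068), Oaz1 (0.082), Gm28437 (0.39), Gm28661 (0.55), Gm13340 (0.053) and Actb (0.17), and with total counts alone for Gm28437 (0.30), Gm28661 (0.46) and Actb (0.063). Gm28661 also turned with a minimum count of 50 (0.038) and without replicate 2 at 8 h (0.012), and Gm4202 without replicate 3 at 8 h (−0.27). GC and length correction turned Gm28437 (0.34), Gm28661 (0.60) and Gm15459 (−0.0616). The cause was not tested.

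With 1 library left out, no makeup difference (8 h minus 4 h) passed the adjusted test, as fewer regroupings exist. The ranges were −8.45 to −7.14 percentage points for the 50 most abundant genes, 0.00234 to 0.00437 for oocyte, −3.50 to −3.35 for granulosa, 0.00292 to 0.00335 for immune and 0.000683 to 0.00362 for surface epithelium markers. Theca and stroma turned to −0.00772 without replicate 2 at 8 h (highest 0.0264), and erythroid markers to −3.18e-06 without replicate 3 (highest 9.28e-05). With no filter on low counts 20076 genes were tested, of which 2385 were higher, 1695 of them among the 1817, and 1498 lower, 1250 of them among the 1485.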

Other observations

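Stress and survival genes outside the ovulatory groups changed in both directions. Of 19 chaperones 7 fell and 1 rose (median −0.18, and 0.41 under total counts alone), the one being Hspb1, a small heat shock protein, with 48.4, 15.2 and 84.7 CPM at 8 h and 0 to 2.90 CPM at 4 h (log2 fold change 5.90 ± 0.68, SE; edgeR's quasi-likelihood test, adjusted p = 6.49e-05). Of 24 endoplasmic reticulum stress genes 8 fell and 2 rose; Asns, asparagine synthetase, had 8.61, 18.5 and 13.8 CPM at 8 h and 91.4 to 243 CPM at 4 h (−3.24 ± 0.38). Of 22 oxidative stress genes 6 rose and 4 fell. Cat, catalase, had 22.1, 36.5 and 30.9 CPM at 8 h and 0.892 to 7.59 CPM at 4 h (2.62 ± 0.38), while Txnrd1 had 5.33, 8.93 and 3.39 CPM at 8 h and 45.0 to 85.8 CPM at 4 h (−3.35 ± 0.36). Of 17 p53 targets and apoptosis genes 4 rose and 5 fell; Bcl2l1, which opposes apoptosis, rose by 2.94 ± 0.30. Each of these named genes was without overlap.

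Of 23 cell cycle genes 3 rose and 7 fell, with Ccnd3, cyclin D3, at 291, 267 and 212 CPM at 8 h and 29.7 to 55.9 CPM at 4 h (2.55 ± 0.23), and of 8 cell cycle inhibitors 3 rose and 3 fell. Of 9 polyamine genes 5 fell and 1 rose; Odc1, the first enzyme, had 7.38, 7.42 and 23.7 CPM at 8 h and 78.5 to 1077 CPM at 4 h (−5.19 ± 0.97). In the vascular list 4 of 11 rose and 2 fell, in the collagen and basement membrane list 4 of 22 rose and 0 fell, and among adhesion genes 5 of 17 rose and 4 fell. Counts higher and lower were 3 and 3 of 13 for NF-kB and cytokines, 3 and 3 of 10 for MHC class I and interferon, 0 and 3 of 5 for cold shock proteins, 1 and 4 of 8 for Wnt, 3 and 5 of 15 for the IGF system, 3 and 7 of 24 for activin and BMP, 1 and 2 of 6 for Notch, 1 and 1 of 9 for secreted peptides and 2 and 4 of 12 for amino acid transporters. Over all genes tested 21.6% were higher and 17.7% lower. Shares such as those of NF-kB and cytokines and of oxidative stress lie near these. The balance turned under total counts alone for chaperones (6 higher and 3 lower) and endoplasmic reticulum stress (7 and 3). The same held for p53 targets and apoptosis (6 and 2), the cell cycle (5 and 1) and the IGF system (4 and 2). It also held for activin and BMP (8 and 6) and amino acid transporters (4 and 3). With the 9 libraries at 8 h of the other plate the balance turned for oxidative stress (3 and 8) and Wnt (3 and 2). In that fit it also turned for p53 targets and apoptosis (6 and 3) and the cell cycle (7 and 3). Among cell type markers, Krt8, an epithelial keratin, had 3.28, 24.4 and 6.21 CPM at 8 h and 0 to 1.16 CPM at 4 h (4.41 ± 0.70).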
